A study of Homo sapiens with 10 samples.

Results

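The large coiled-coil tethers and scaffolds of the Golgi, the endosomes and the centrosome were followed in MDA-MB-435 cells, an established human melanoma line. The set was a list of 39 genes, and every probe set whose only annotated symbol was on the list belonged to it. This gave 80 probe sets of 36 genes out of 22215 probe sets other than controls. USO1 and UACA had no probe set of their own, and those of CEP170 carried several symbols. RNA was hybridised to 10 Affymetrix hgu133a arrays, 2 for each of 5 groups. The groups were cells with HGF, hepatocyte growth factor, for 1 h, 6 h and 24 h, cells transduced with integrin beta 4 (ITGB4), and untreated cells of the same line, which carried no treatment. The transduced cells are also labelled Mock in their sample descriptions, and no mock-transduced cells were among the groups, so transduction and ITGB4 cannot be told apart. Duplicates are described as biological, and nothing further is given on how the cultures were separated. The other 4 groups were all compared with the same 2 untreated arrays. The values are RMA values on the log2 scale, on which a difference of 1 stands for a 2-fold difference in signal, and they carry no read depth.

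Golgins are long rod-like proteins that stand out from the Golgi membrane and catch vesicles, with small GTPases of the ARL and RAB families holding many of them in place. Endosomal tethers such as EEA1 and rabaptin-5 do the same for early endosomes as effectors of RAB5, and the recycling endosome has RAB11 effectors. At the centrosome, coiled-coil scaffolds such as pericentrin and PCM1 gather the material that nucleates microtubules and the satellites around it. Kinesin and dynein adaptors link these membranes to microtubules. HGF acts through the receptor tyrosine kinase MET and makes many cells spread and move, during which the Golgi and the centrosome are often repositioned towards the leading edge.

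Promoters of 3 genes are shown because they stand for the patterns met in the data. ZFYVE16 had the largest decrease of the set after 1 h with HGF. KTN1 was lower at 1 h on all 3 of its measured probe sets. GOLGA2 was not called at 1 h and had its lowest HGF values at 6 h. Each line gives the 250 bases before the RefSeq transcription start of the gene in GRCh38.p14, on the strand of the gene, at chr5:80407814-80408063 (plus strand), chr14:55579957-55580206 (plus strand) and chr9:128276008-128276257 (minus strand). Capitals mark matches to GGGCGG (the SP1 site), CCGGAAG (the ETS site) and CCAAT, searched on both strands.
ZFYVE16: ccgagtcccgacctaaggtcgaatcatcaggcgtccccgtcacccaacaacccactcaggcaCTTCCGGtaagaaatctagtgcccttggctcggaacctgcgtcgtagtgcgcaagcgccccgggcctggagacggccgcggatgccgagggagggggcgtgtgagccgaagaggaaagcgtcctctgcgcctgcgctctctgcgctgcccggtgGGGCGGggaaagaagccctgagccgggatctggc
KTN1: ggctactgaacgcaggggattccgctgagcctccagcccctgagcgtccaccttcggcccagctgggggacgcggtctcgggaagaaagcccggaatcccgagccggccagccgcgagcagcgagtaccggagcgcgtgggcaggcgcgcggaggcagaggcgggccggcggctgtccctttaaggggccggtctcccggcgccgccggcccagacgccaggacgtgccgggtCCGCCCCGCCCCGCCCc
GOLGA2: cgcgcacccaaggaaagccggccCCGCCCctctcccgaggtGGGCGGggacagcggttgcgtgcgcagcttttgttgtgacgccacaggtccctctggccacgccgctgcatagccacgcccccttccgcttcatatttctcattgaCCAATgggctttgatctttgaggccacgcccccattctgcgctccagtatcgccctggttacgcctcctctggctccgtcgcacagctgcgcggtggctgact
GGGCGG stood in this window of 9 of 10 genes that were lower at 1 h and have a window, of 9 of 12 measured genes that were not called, and of 77.4% of all 5339 measured genes with a window. CCGGAAG stood in 1 of the 10, in 5 of the 12 and in 20.4% of all measured genes. CCAAT stood in 4 of the 10, in 5 of the 12 and in 43.9%. The AP-1 letters TGACTCA were in 0 of the 33 windows of listed genes, against 3.95% of measured genes. The median GC content was 67.8% for the genes lower at 1 h, 67.0% for those not called and 64.8% for all measured genes. These are matches of letters, and no binding was measured.

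The array medians lay between 6.81 and 6.88. Of 13 melanocyte marker genes on the array 12 were measured, with array medians of the list from 10.7 to 11.5, whereas 2 of 10 epithelial and 3 of 8 fibroblast markers were measured, with array medians of 6.00 to 6.35 and of 6.05 to 6.71. A probe set was taken as measured when its second-highest value over the 10 arrays was among the highest 45.6% of probe sets other than controls, which set the lowest such value at 7.31. By this filter 45 probe sets of 27 listed genes were measured, among 6370 genes with a single symbol. The value of 7.31 is a rank cut, and no background level was measured. A group mean under 7.31 leaves the size of a difference uncertain. This holds in some group for 14 of the 45, among them ZFYVE16, GCC2, PCM1, RAB11FIP2, ROCK2 and CEP350 after 1 h. It also holds for the KTN1 probe set with the widest difference at 1 h, whose mean was then 6.49. A gene counts as higher or lower when any of its measured probe sets had an adjusted p under 0.05 by limma, with Benjamini-Hochberg adjustment over all measured probe sets. The standard errors of limma rest on the within-group spread of the 5 groups together. For a single gene, 2 arrays against 2 allow no exact two-sided p below 0.333.

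After 1 h with HGF, 13 of the 27 measured genes were lower than in untreated cells and 0 were higher. They were 4 golgins (GOLGA4, GCC2, GOLGB1 and GOLGA5), 2 endosome proteins (ZFYVE16 and RAB11FIP2), 3 centrosome proteins (CEP350, PCM1 and CEP57), the kinesin KIF5B, the endoplasmic reticulum protein KTN1 the autophagy scaffold RB1CC1 and the kinase ROCK1. These 13 genes had 16 called probe sets of 45, against 5.08% of all measured probe sets called lower and 0.592% called higher. The median log2 difference of the 45 was -0.59, against 0.06 over all measured probe sets. Both HGF 1 h arrays lay below both untreated arrays for 28 of the 45, against 25.9% of all, and above both for 7, against 34% of all. The 2 HGF 1 h arrays were the lowest of all 10 for 18 of the 45 (40%), against 8.31% of all. No listed gene was called (0) when an untreated array (replicate 1 or 2) or replicate 1 of the HGF 1 h arrays was left out. Those fits also lost every lower call over the whole array, so the loss was not particular to the set. Over all fits that left out 1 array the median difference of the set ran from -0.75 to -0.41. Without HGF 6 h replicate 1 or HGF 6 h replicate 2, which enter only the estimate of the spread, fewer genes were called, both in the set and over the whole array.

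**Figure D1:**
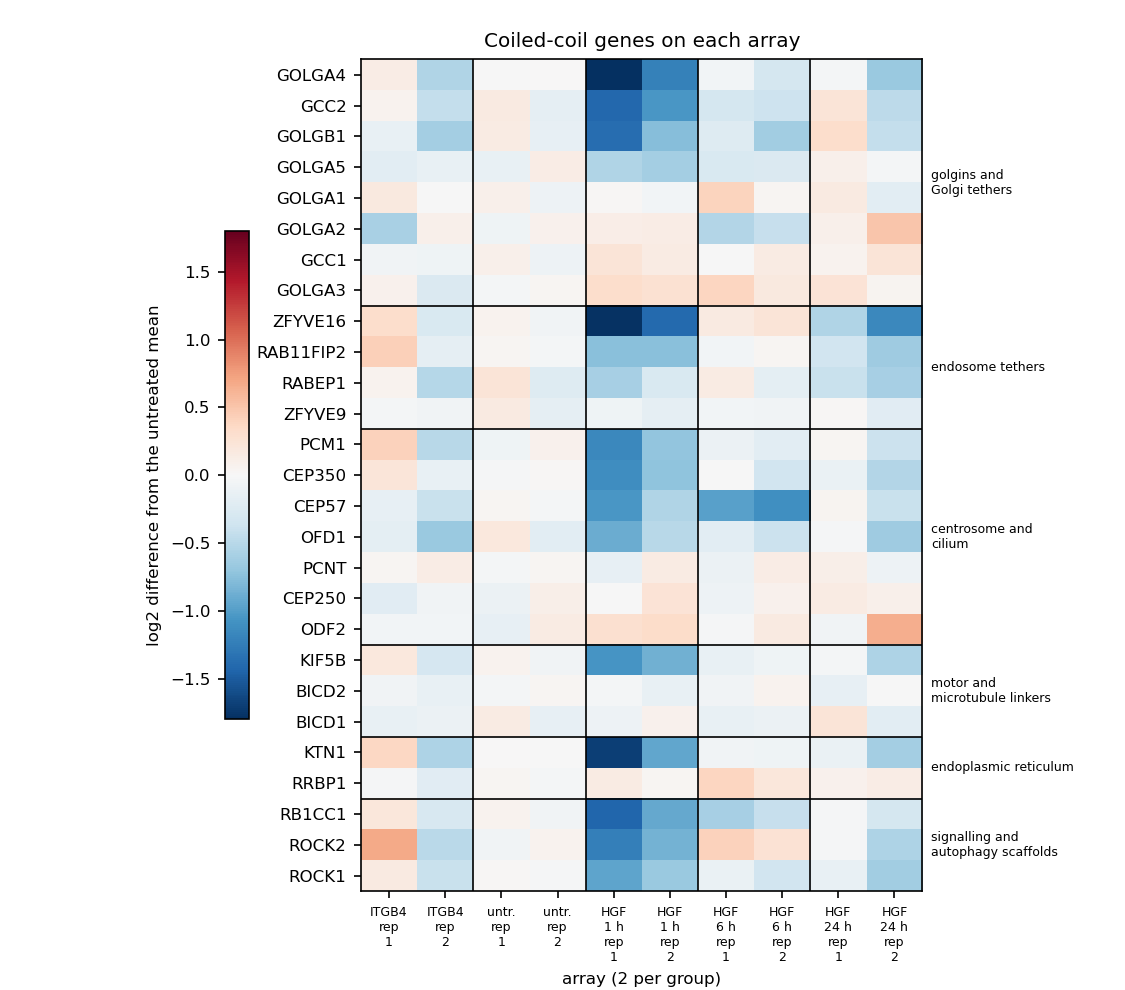
Log2 difference from the mean of the 2 untreated arrays (colour, blue lower and red higher) of the 27 measured genes (rows, by role; probe set with the highest mean) on each of the 10 arrays (columns; rep is replicate, untr. is untreated). The HGF 1 h arrays are deep blue for GOLGA4, GCC2, GOLGB1, ZFYVE16 and KTN1, CEP57 is blue at 1 and 6 h, and GOLGA1, GCC1, PCNT, CEP250, BICD1, BICD2 and RRBP1 stay pale.

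Among the golgins the set split at 1 h. GOLGA4 (golgin-245), a tether of the trans-Golgi that ARL1 recruits, was 7.38 and 7.99 on the HGF 1 h arrays, against 9.20 and 9.22 on the untreated arrays. The groups were far apart, and GOLGA4 fell by 1.53 (standard error 0.26, adjusted p = 0.0203 by limma, n = 2 per group). GCC2 (GCC185), another trans-Golgi tether with the same kind of membrane-binding domain, was 6.43 and 6.80 after 1 h, against 8.00 and 7.68 in untreated cells, and fell by 1.23 (standard error 0.24, adjusted p = 0.0233). GOLGB1 (giantin), which spans the Golgi membrane, was 7.32 and 7.92 after 1 h and 8.84 and 8.55 in untreated cells and fell by 1.07 (standard error 0.27, adjusted p = 0.0451). Its other measured probe set differed by -0.50 and was not called, and with the mean of both the adjusted p was 0.0650. GOLGA5 (golgin-84), also a membrane-spanning golgin, fell less, to 8.80 and 8.73 after 1 h, against 9.21 and 9.47 in untreated cells (difference -0.58, adjusted p = 0.0299). The other 4 measured golgins were not called. GOLGA1 (golgin-97) and GCC1 (GCC88), which carry the same type of domain as GOLGA4 and GCC2, differed by -0.0094 and 0.19. GOLGA2 (GM130), the tether of the cis-Golgi, differed by 0.13 to 0.15 on its 3 probe sets, and GOLGA3 (golgin-160) by 0.30. The median over the 11 golgin probe sets was -0.0094, with 5 probe sets below and 5 above both untreated arrays on both HGF 1 h arrays.

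Of 4 measured endosome genes 2 were lower at 1 h. ZFYVE16 (endofin), a FYVE-domain protein of early endosomes, was 6.78 and 7.16 after 1 h, against 8.63 and 8.49 in untreated cells. It fell by 1.59 (standard error 0.23, adjusted p = 0.00933), the largest decrease of the 45 probe sets. RAB11FIP2, a RAB11 effector of the recycling endosome, was 6.73 on both HGF 1 h arrays and 7.52 and 7.44 in untreated cells, and fell by 0.75 (adjusted p = 0.0395). RABEP1 (rabaptin-5), an effector of RAB5, was 7.28 and 7.61 after 1 h and 8.12 and 7.65 in untreated cells. Its arrays did not overlap, but the difference of -0.44 had an adjusted p of 0.226. ZFYVE9 (SARA), the closest relative of ZFYVE16 in the set and an adaptor of TGF-beta receptors, differed by -0.12.

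Of 7 measured centrosome and cilium genes 3 were lower at 1 h. CEP350, which binds microtubules at centrioles, was 5.66 and 6.38 after 1 h and 7.04 and 7.40 in untreated cells on 1 probe set and fell by 1.20 (standard error 0.28, adjusted p = 0.0369). On its other probe set it fell by 0.92 (adjusted p = 0.0273). PCM1, the scaffold of centriolar satellites, fell by 1.09 (standard error 0.24, adjusted p = 0.0299), with 6.40 and 6.77 after 1 h, against 7.65 and 7.70 in untreated cells. The other 2 probe sets of PCM1 differed by -0.93 and -0.61 with adjusted p of 0.0615 and 0.0692. CEP57, a centrosome protein that also acts at the spindle, was 8.13 and 8.63 after 1 h and 9.21 and 9.13 in untreated cells (difference -0.79, adjusted p = 0.0400), with -0.67 and -0.59 on the 2 probe sets that were not called. OFD1, a protein of centrioles and satellites, was 8.16 and 8.55 after 1 h and 9.24 and 8.87 in untreated cells, without overlap, and its difference of -0.70 had an adjusted p of 0.0961. The other centrosome scaffolds were not called at 1 h. PCNT (pericentrin) was 9.02 and 9.31 after 1 h and 9.14 and 9.20 in untreated cells. CEP250 (C-Nap1), which ties the centrioles together, differed by 0.12 and 0.24, and ODF2, of the centriole appendages, by 0.31 (adjusted p = 0.343).

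KIF5B, the heavy chain of the kinesin that carries many membrane cargoes, was 8.81 and 9.01 after 1 h, against 9.94 and 9.82 in untreated cells, and fell by 0.97 (standard error 0.19, adjusted p = 0.0257). Its second probe set differed by -0.82 without a call, and with the mean of both the adjusted p was 0.0504. BICD1 and BICD2, adaptors that join dynein to Golgi vesicles, were not called, with differences from -0.33 to -0.0063 over 4 probe sets. KTN1 (kinectin), a receptor for kinesin on the endoplasmic reticulum, fell on all 3 probe sets, with differences of -1.44, -1.31 and -1.25 (adjusted p = 0.0229, 0.0322 and 0.0317). On the brightest of them KTN1 was 8.36 and 9.11 after 1 h and 10.06 and 10.04 in untreated cells. RRBP1 (p180), the ribosome receptor of the same membrane, had differences between 0.0036 and 0.10 on its 3 probe sets. RB1CC1 (FIP200), a scaffold of the complex that starts autophagy, was 8.03 and 8.53 after 1 h and 9.51 and 9.40 in untreated cells and fell by 1.17 (standard error 0.20, adjusted p = 0.0195). Of the kinases that act on the actin cytoskeleton, ROCK1 fell by 0.80 (standard error 0.21, adjusted p = 0.0476), with 7.95 and 8.24 after 1 h, against 8.93 and 8.88 in untreated cells. Its second probe set differed by -0.77 without a call. ROCK2 was 6.69 and 7.06 after 1 h and 7.86 and 7.98 in untreated cells, and its difference of -1.04 was not called (adjusted p = 0.0723). A second ROCK2 probe set differed by -0.46, also without a call.

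After 6 h with HGF, 1 listed gene was lower than in untreated cells and 0 were higher, where 2.33% of all measured probe sets were lower and 3.90% higher. The median of the set was -0.11, against 0.01 for all. CEP57 was the gene called, at 8.19 and 8.06 after 6 h, against 9.21 and 9.13 in untreated cells, and fell by 1.04 (standard error 0.19, adjusted p = 0.0141). Its other 2 probe sets differed by -0.82 and -0.74 (adjusted p = 0.0516 and 0.0611). This call was lost without either untreated array or either HGF 6 h array. Over all fits that left out 1 array the CEP57 difference ran from -1.11 to -0.98. RB1CC1 had the next lowest difference, with 8.85 and 9.05 after 6 h and 9.51 and 9.40 in untreated cells, and was not called (difference -0.51). Towards higher values ROCK2 and RRBP1 differed most, by 0.33 and 0.30, also without a call. The second probe set of ROCK2 differed by -0.15.

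Set directly against 1 h, 11 listed genes were higher at 6 h on 15 probe sets and 0 were lower, where 11.9% of all measured probe sets were higher and 6.42% lower. The median difference of the set was 0.31, against -0.02 for all. This comparison uses the HGF 1 h and HGF 6 h arrays again, so their values are given side by side and not as separate evidence. ZFYVE16 was 8.73 and 8.79 after 6 h, against 6.78 and 7.16 after 1 h, and rose by 1.79 (standard error 0.23, adjusted p = 0.00231). ROCK2, not called at 1 h against untreated cells, was 8.33 and 8.17 after 6 h and 6.69 and 7.06 after 1 h and rose by 1.38 (standard error 0.31, adjusted p = 0.0148). Its second probe set differed by 0.31 without a call. GOLGA4 rose by 1.34 (adjusted p = 0.00936), with 9.17 and 8.90 after 6 h, against 7.38 and 7.99 after 1 h. The 3 probe sets of KTN1 rose by 1.30, 1.24 and 1.19. PCM1 rose by 1.10, CEP350 by 0.97, GCC2 by 0.88, KIF5B by 0.86, ROCK1 by 0.75, RAB11FIP2 by 0.74 and RB1CC1 by 0.67 (adjusted p = 0.0113 to 0.0431). The ROCK1 rise was on the probe set not called at 1 h, and the probe set called then rose by 0.57 without a call. GOLGB1 and GOLGA5, lower at 1 h, were not called between 1 and 6 h, and neither was CEP57. GOLGA2 ran the other way on all 3 probe sets, with differences of -0.60, -0.46 and -0.38 and adjusted p of 0.0651, 0.0978 and 0.0757. Without HGF 1 h replicate 1 or either HGF 6 h array most of these calls were lost, as were most of those over the whole array. ZFYVE16 stayed under 0.05 in every fit that left out an array, with an adjusted p of at most 0.0342.

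**Figure D2:**
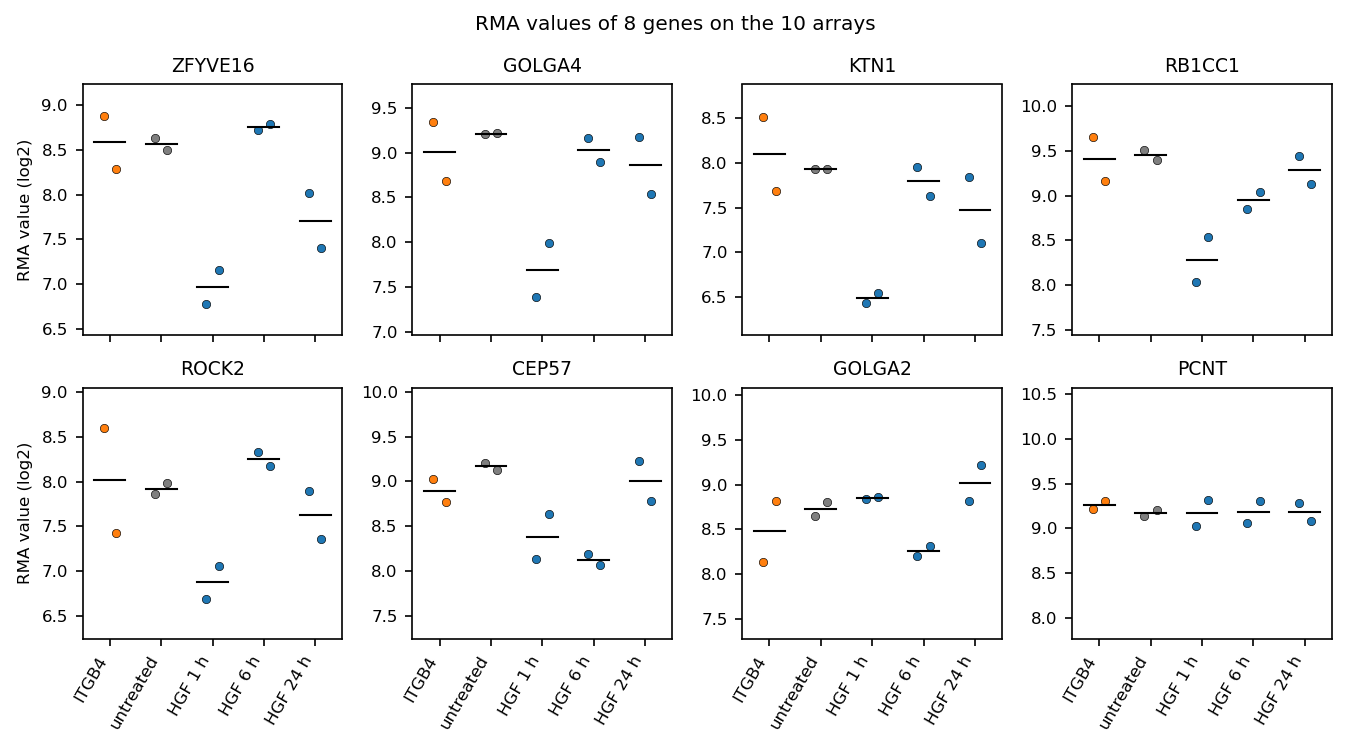
RMA values on the log2 scale (vertical axes, each spanning the same range) of ZFYVE16, GOLGA4, KTN1, RB1CC1, ROCK2, CEP57, GOLGA2 and PCNT by group (for KTN1 the probe set with the difference of -1.44 at 1 h), from ITGB4-transduced and untreated cells to HGF at 1, 6 and 24 h (horizontal axes). Each point is an array and each line a group mean: ZFYVE16, GOLGA4, KTN1, RB1CC1 and ROCK2 are lowest at 1 h, CEP57 and GOLGA2 have their lowest means at 6 h, and the PCNT values lie between 9.02 and 9.31.

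After 24 h with HGF, 0 listed genes were called in either direction against untreated cells by limma, as was 0% of all measured probe sets. At an unadjusted p under 0.05, 3 probe sets of the set were lower and 0 higher, against 8.00% and 3.16% of all. The median of the set was -0.12, against 0.0026 for all. Without HGF 24 h replicate 1 the median was -0.32, and without HGF 24 h replicate 2 it was 0.02. ZFYVE16 lay lowest, at 8.01 and 7.40 after 24 h, against 8.63 and 8.49 in untreated cells (difference -0.85, adjusted p = 0.345). RABEP1 differed by -0.50 and RAB11FIP2 by -0.49, and these endosome genes lay below both untreated arrays on both 24 h arrays. So did 16 of the 45 probe sets of the set (35.6%), against 24.2% of all measured probe sets. KTN1 differed by -0.55, -0.46 and -0.36 on its 3 probe sets, while ODF2 and GOLGA2 lay highest, by 0.30 and 0.29. On its other probe sets GOLGA2 differed by 0.19 and 0.12. None of these passed the test.

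Between 24 and 6 h, CEP57 and GOLGA2 were higher at 24 h and ZFYVE16 was lower, where 6.96% of all measured probe sets were higher and 12.6% lower. CEP57 was 9.22 and 8.78 after 24 h, against 8.19 and 8.06 after 6 h, and rose by 0.87, 0.85 and 0.71 on its 3 probe sets (adjusted p = 0.0108, 0.0221 and 0.0391). CEP57 was thus the one listed gene called lower against untreated cells at both 1 and 6 h, and its 24 h mean of 9.00 did not differ from the untreated mean of 9.17 beyond the threshold. GOLGA2 was 8.82 and 9.22 after 24 h and 8.20 and 8.32 after 6 h and rose by 0.76 (standard error 0.20, adjusted p = 0.0253) on 1 of 3 probe sets, with 0.51 and 0.35 on the others. ZFYVE16 fell by 1.05 to 8.01 and 7.40 after 24 h, against 8.73 and 8.79 after 6 h (standard error 0.23, adjusted p = 0.0107). Its values over time, 8.63 and 8.49 untreated, 6.78 and 7.16 at 1 h, 8.73 and 8.79 at 6 h and 8.01 and 7.40 at 24 h, went down, up and down again. The ZFYVE16 call was lost without either HGF 6 h array or HGF 24 h replicate 2, the GOLGA2 call without the same 3 arrays and the CEP57 call without HGF 6 h replicate 2 or HGF 24 h replicate 1 (adjusted p up to 0.0787, 0.144 and 0.0890). Directly between 24 and 1 h, 0 listed genes were called by limma, where 0.00986% of all probe sets were called higher and 0% lower. At an unadjusted p under 0.05, 20 probe sets of the set were higher and 0 lower at 24 h, against 7.54% and 7.17% of all, and the median was 0.39, against -0.03 for all. Both changed in size when single arrays were left out, but the median stayed positive in every such fit (0.22 to 0.67). Without HGF 24 h replicate 1 the count was 5 and the median 0.22, without HGF 1 h replicate 1 they were 8 and 0.25, and without HGF 24 h replicate 2 the median was 0.67. GOLGA4 and GCC2 had the widest differences, 1.17 and 1.11 (adjusted p = 0.122 and 0.108).

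In ITGB4-transduced cells 0 listed genes were called against untreated cells by limma, where 0.0493% of all measured probe sets were higher and 0% lower. No probe set of the set had an unadjusted p under 0.05 (0 in either direction), against 2.36% lower and 3.73% higher of all. The median was -0.09, against -0.0007 for all. Without ITGB4 replicate 1 it was -0.25, and without ITGB4 replicate 2 it was 0.07. By the brightest probe set of each gene, OFD1 and GOLGB1 lay lowest, with differences of -0.42 and -0.37, and RAB11FIP2 and ROCK2 highest, with 0.14 and 0.10. The spread between the 2 transduced arrays was wide for several genes. ROCK2 was 8.60 and 7.43 in transduced cells, on either side of 7.86 and 7.98 in untreated cells, and KTN1 was 10.42 and 9.49, on either side of 10.06 and 10.04.

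The 16 probe sets called lower at 1 h also differed between the 2 arrays of several groups. The HGF 1 h and untreated arrays had served to choose them, and the arrays of the other 3 groups entered that choice only through the spread. The median difference of replicate 1 minus replicate 2 over these 16 was 0.58 in ITGB4-transduced cells, with replicate 1 higher on 15 of 16. It was 0.03 in untreated cells and -0.39 after 1 h with HGF, with replicate 1 lower on 14 of 16. After 6 h it was 0.10, and after 24 h 0.50, with replicate 1 higher on 16 of 16. Over all measured probe sets these medians were 0.04, -0.02, 0.02, -0.02 and -0.07 in the same order of groups. Over the 29 probe sets of the set not called at 1 h they were 0.18, -0.06, -0.24, 0.01 and 0.20. In the ITGB4, HGF 1 h and HGF 24 h groups these had the same sign as those of the 16 and were smaller. The median of the whole set from the untreated mean was 0.07 and -0.25 on the ITGB4 arrays, -0.75 and -0.41 at 1 h, -0.06 and -0.14 at 6 h, and 0.02 and -0.32 at 24 h. By this median both HGF 1 h arrays lay below every other array, and by unequal amounts. The highest of the 10 values fell on ITGB4 replicate 1 for 18 of the 45 probe sets (40%), against 16.2% of all. The 3' minus 5' signal of the ACTB control probe sets, a measure of RNA integrity, was -0.45 and -0.57 on the ITGB4 arrays, -0.30 and -0.34 in untreated cells, -0.27 and -0.42 at 1 h, -0.34 and -0.36 at 6 h and -0.085 and -0.33 at 24 h, and replicate 1 was the higher in each group. The same measure on the GAPDH control probe sets did not follow that order. It was -0.16 and -0.19 on the ITGB4 arrays, -0.01 on both untreated arrays, -0.10 on both HGF 1 h arrays, -0.21 and -0.0061 at 6 h and -0.14 and -0.02 at 24 h, so that replicate 1 was clearly the lower at 6 and 24 h. The part of RNA integrity in these differences was not tested.

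**Figure D3:**
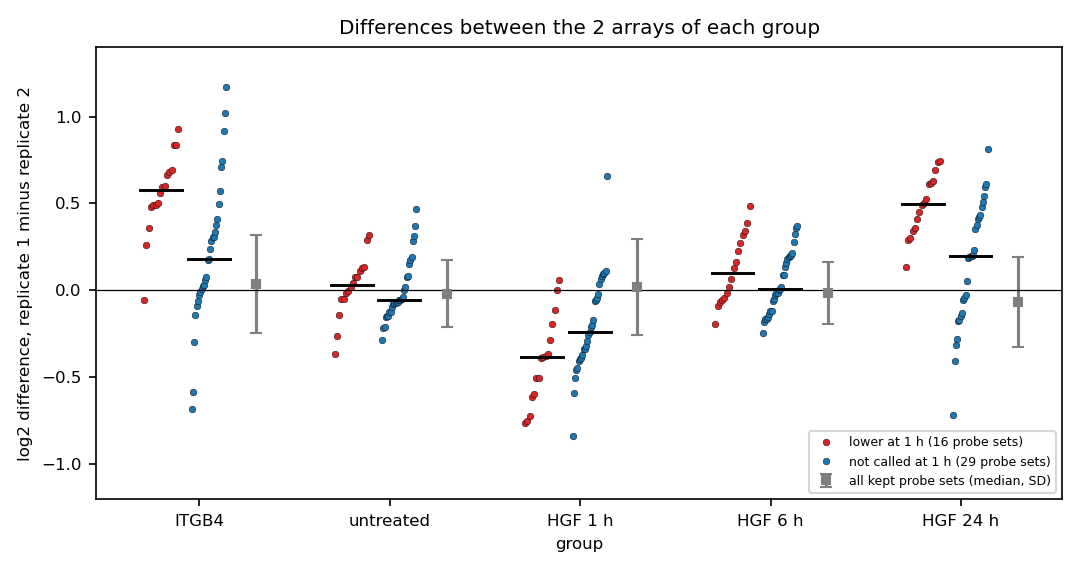
Log2 difference of replicate 1 minus replicate 2 (vertical axis) in each group (horizontal axis) for the 16 probe sets lower at 1 h (red), the 29 not called at 1 h (blue; black lines are medians) and all measured probe sets (grey square, median, with bars of 1 SD). The red medians are 0.58 in ITGB4-transduced cells, 0.03 in untreated cells, -0.39 at 1 h, 0.10 at 6 h and 0.50 at 24 h. The blue medians are 0.18, -0.06, -0.24, 0.01 and 0.20 in the same order.

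The 35 probe sets of the set that were not measured by the filter, from 20 genes, had mean values between 2.89 and 7.04. They hold every probe set of TRIP11, EEA1, CEP290, CEP135, AKAP9, NIN, CROCC, CLIP1 and CCDC88A. At 1 h their median difference was -0.41, with 30 of 35 below 0. The same values were not worked out over all probe sets that failed the filter, so whether these are unusual is not known. CLIP1 (CLIP-170), which binds growing microtubule ends, was 6.25 and 6.16 after 1 h, against 7.26 and 7.12 in untreated cells. AKAP9, an anchor of protein kinase A at the Golgi and centrosome, was 4.96 and 5.02 after 1 h and 6.52 and 6.18 in untreated cells on 1 of its 3 probe sets. TRIP11 (GMAP-210), a golgin of the cis-Golgi, was 5.45 and 5.93 after 1 h and 6.65 and 6.50 in untreated cells on 1 probe set. On the other it was 6.65 and 6.86 after 1 h and 6.79 and 6.65 in untreated cells. EEA1, the RAB5 tether of early endosomes, was 5.15 and 5.39 after 1 h and 5.71 and 5.90 in untreated cells on its brighter probe set. CROCC (rootletin), of the fibre that roots cilia, was 7.02 on both arrays after 1 h and 7.14 and 6.91 in untreated cells. Their second-highest values lie under the rank cut of the filter, and no background level was measured. No test was made on these probe sets with the filter in place. Without the filter 16 genes were called lower at 1 h and 17 higher at 6 h against 1 h, against 13 and 11 with it. In that fit 3.53% of all 22215 probe sets were lower at 1 h and 6.54% higher at 6 h against 1 h.

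Most of the listed genes span long stretches of the genome in GRCh38.p14. The median span was 86.8 kb (42.0 to 164.9) for the 13 genes lower at 1 h, 66.3 kb (4.97 to 276.8) for the 14 measured genes not called, and 29.1 kb for all 6370 measured genes. For this comparison each gene was taken by its brightest probe set, by which 12 of the 27 were lower at 1 h, PCM1 being called on another. Across all measured genes the difference at 1 h was the lower the longer the gene, on a log10 scale of span (Pearson r -0.34, Spearman rho -0.36), and across the 27 listed genes r was -0.31 and rho -0.35. These are descriptions across genes, which share the same arrays and are not independent. The median over all genes at 1 h was 0.16 for those under 10 kb, 0.12 from 10 to 30 kb, 0.02 from 30 to 60 kb, -0.04 from 60 to 100 kb and -0.11 at 100 kb or more, with 0.911%, 2.68%, 6.51%, 9.92% and 10.2% called lower. From 30 kb upwards the listed genes stood lower than the medians of their span, at -0.70 for the 7 from 30 to 60 kb, -0.54 for the 8 from 60 to 100 kb and -0.86 for the 10 of 100 kb or more. The 1 listed gene under 10 kb and the 1 from 10 to 30 kb differed by 0.19 and 0.13, near the medians of all genes of their span. BICD1 and ZFYVE9, at 276.8 and 204.5 kb the longest measured members, differed by -0.0063 and -0.12 and were not called. RAB11FIP2 and CEP57, at 42.0 and 42.7 kb, were lower, and so were ROCK1 and CEP350, at 164.9 and 160.1 kb. The part of span in these differences was not tested.

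**Figure D4:**
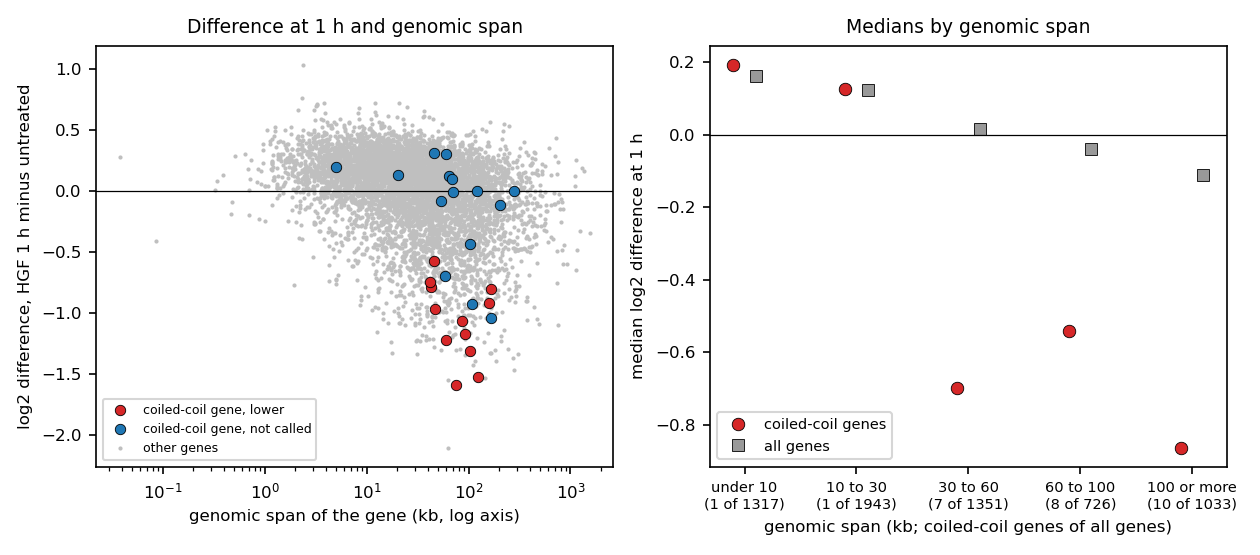
Left, log2 difference of HGF 1 h minus untreated (vertical axis) against genomic span in kb (log axis) for 27 listed genes (red, lower; blue, not called) and the other measured genes (grey). Right, medians of the same difference by span class for listed genes (circles) and all genes (squares), which run from 0.16 to -0.11 for all genes and reach -0.86 for the listed genes of 100 kb or more.

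Other genes of the same organelles and other coiled-coil genes were counted in the same way. At 1 h, of 36 measured Golgi and endosome partners (small GTPases, SNAREs, retromer and COG subunits), 4 were lower and 1 higher, with a median of -0.03. These were 6.35% and 1.59% of the 63 probe sets of that list, near the 5.08% and 0.592% of all measured probe sets. ARL1, the GTPase that recruits GRIP-domain golgins, fell by 0.67 to a mean of 8.02 after 1 h, against 8.69 in untreated cells (standard error 0.11, adjusted p = 0.0194), and SNX2, a sorting nexin of the retromer, fell by 0.71 (adjusted p = 0.0265). BET1 and VPS26A were the other lower ones. The SNARE YKT6 rose by 0.57 (adjusted p = 0.0312). Of 19 other measured centrosome genes, CETN3 (a centrin), which fell by 1.24, and CEP55, a midbody protein, which fell by 0.74, were lower (adjusted p = 0.0100 and 0.0499), with 8.70% of 23 probe sets lower, 0% higher and a median of 0.03. Of 25 other long coiled-coil proteins, with sites in the nucleus, the nuclear pore, the cytoskeleton or the endocytic pathway, 7 were lower and 0 higher, with 22.2% of 45 probe sets lower and a median of -0.65. TPR, of the nuclear pore basket, fell by 1.55, and SMC3, a cohesin subunit, fell by 1.54 (adjusted p = 0.0194 and 0.0217), beside SMC2, SMC4, HMMR, SYNE2 and LRRFIP1. Between 6 and 1 h, 10 of these 25 were higher and 2 lower (31.1% and 4.44% of probe sets, against 11.9% and 6.42% of all), with a median of 0.49, and CENPE, a kinesin of the kinetochore, rose by 1.67 (adjusted p = 0.0136). The lists share the arrays with the set above, and no difference between lists was tested.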

How the data were processed

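RNA from 10 MDA-MB-435 samples was measured on 1-colour arrays. The authors made the deposited log2 values with RMA (affy), which corrects background, normalizes between arrays by quantiles and summarizes probes; presence calls were not used here. Of the probe sets other than controls, 19065 had 1 symbol in the platform annotation, 1043 several and 2107 none, and only the first were named. Group means were compared in R 4.3.3 with limma 3.58.1 over all 10 arrays (5 residual degrees of freedom, prior SD 0.144), with Benjamini-Hochberg adjustment within each of 7 comparisons, after a test on simulated data. The filter keeps as many probe sets as the study detected. Listed genes, gene lists and tests were chosen with earlier results of these data known, so lists carry no p-value. Standard errors are given for called listed genes, at most the 10 widest per comparison, and where fewer than 3 were called the 2 widest each way are named, and at most 2 each way from other lists. Probe sets ending in _x_at (KTN1, PCM1, CEP57, ROCK2) can share probes with other transcripts. Spans and promoters came from RefSeq tables of GRCh38.p14, in which 33 of the 39 genes have a promoter window. Protein lengths, planned as a second measure, were not analysed here. Alternatives were other filters, scalings, spreads, priors, adjustments and thresholds, the replicate number as a block, each array left out and, chosen after seeing the data, both ITGB4 arrays left out.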

Additional observations from a re-analysis of the deposited data

Results flagged for a closer look

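A listed gene is given here when its effect at 1 HGF time differed from its effect at another by a direct contrast between the times, both effects being measured from the same untreated arrays. At 6 against 1 h this held for ZFYVE16 (1.79), ROCK2 (1.38), GOLGA4 (1.34), KTN1 (1.30), PCM1 (1.10), CEP350 (0.97), GCC2 (0.88), KIF5B (0.86), ROCK1 (0.75), RAB11FIP2 (0.74) and RB1CC1 (0.67), all higher at 6 h on the log2 scale. At 24 against 6 h it held for ZFYVE16 (-1.05), which was lower at 24 h, and for CEP57 (0.87) and GOLGA2 (0.76), which were higher. At 6 against 1 h ROCK1, ROCK2 and KIF5B passed on 1 of 2 probe sets and PCM1 on 2 of 3. At 24 against 6 h GOLGA2 passed on 1 of 3. With 2 arrays per group, no group was large enough to test a single array as an outlier.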

How the results depend on the processing

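The number of arrays limits every call, and 7.31 is the rank cut of the filter, not a measured background level. Fits without 1 array also changed the number of calls over the whole array. The 13 genes lower at 1 h numbered 9 to 16 under the other filters, scalings, priors, adjustments and thresholds, and 0 to 14 with 1 array left out. Genes lower at 6 h against untreated cells numbered 0 to 1 with 1 array left out and 4 with the spread of the 2 compared groups. Genes higher at 6 against 1 h numbered 17 without a filter, 6 with the stricter filter of 7000 probe sets and 1 to 11 with 1 array left out. Genes lower there, 0 as reported, were 1 with median centring, with the spread of the 2 groups and without both ITGB4 arrays, and 0 to 1 with 1 array left out. At 24 against 6 h, 3 genes were lower with the spread of the 2 groups and without both ITGB4 arrays, and 0 to 3 with 1 array left out; 0 to 2 were then higher. At 24 against 1 h, 3 were higher with the spread of the 2 groups. Signs turned for values that were not called. Without ITGB4 replicate 1, RAB11FIP2 was -0.16 and ROCK2 -0.49 in transduced cells (0.43 and 0.68 without ITGB4 replicate 2). RABEP1 at 24 against 1 h ran from -0.22 to 0.10 with 1 array left out, being 0.039 when this was the HGF 24 h replicate 2. That array also turned ODF2 at 24 h against untreated cells, which ran from -0.063 to 0.66. The causes were not tested. Under the alternatives the 10 widest falls at 1 h were followed by name, each on its called probe set with the widest difference. On these probe sets CEP350, GOLGB1 and ROCK1 were not called with adjustment over the 4 comparisons with untreated cells. The same held for Dunnett's statistic without moderation. The second probe set of CEP350, and RAB11FIP2, CEP57 and GOLGA5, were not followed by name at 1 h. Arrays of the same replicate number deviated together in 8 of 10 pairs of groups (correlation over 0.1) and not in the other 2 (-0.14 to 0.46 over all 10). The main fit did not take the numbers as pairs. With the replicate number as a block, 1 gene was lower at 6 against 1 h, and no call of a named gene changed.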
